A study of Rattus with 4 samples.

Results

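The genes of the core spliceosome and of the SR protein family were compared between RNA precipitated with an antibody to NONO and input RNA in cultured rat cardiac cells. Members were taken by name, as protein-coding genes whose symbols begin with Srsf, Srrm, Sf3a, Sf3b, Snrnp, Snrp, Prpf, Luc7l, U2af, Tra2 or Srpk, together with Son and Rsrp1. This gave 63 genes of 13731 listed. They comprised 18 genes of snRNP proteins, 13 PRPF genes, 8 SF3 subunit genes, 5 genes of U2AF and LUC7-like proteins, 12 genes of SR proteins (Srsf and Tra2), 5 genes of SR-related speckle proteins and 2 genes of SR kinases.

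NONO is a nuclear RNA- and DNA-binding protein of the DBHS family. In RNA immunoprecipitation sequencing the RNA that comes down with a protein is sequenced beside the lysate RNA it was drawn from. There were 2 input libraries, with no antibody, from cells labelled as transfected with an empty vector, and 2 libraries made with an anti-NONO antibody (NONO IP) from cells labelled as transfected with NONO siRNA. Precipitation and siRNA therefore cannot be told apart, and the 4 libraries include none made with a control antibody. All 4 carry the tissue label cardiac musculus. Their titles name H9C2, a rat heart myoblast line, while fibroblasts of the rat heart are what the culture conditions name. Nothing in the labels says whether the replicates were separate cultures, so p-values measure only the spread between these libraries.

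The spliceosome removes introns from pre-mRNA. U1 snRNP recognises the 5′ splice site, U2AF and U2 snRNP with its SF3a and SF3b subcomplexes recognise the 3′ splice site and the branch point, and the tri-snRNP of U4, U6 and U5 then joins to form the active enzyme. SR proteins carry an RNA recognition motif and a domain rich in arginine and serine, bind exons and recruit these particles, and SRPK kinases phosphorylate them. Son and SRRM2 are large scaffold proteins of nuclear speckles, where splicing factors are stored. The mRNAs of the proteins, not the proteins themselves, were measured here.

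Gene counts per library ran from 238776 to 279410, and 657 and 662 reads in the inputs against 861 and 780 in the NONO IP fell on the 63 members. At this depth 3 reads are worth between 10.7 and 12.6 CPM (reads scaled by the library total). The inputs held 21 and 9 reads of Nono itself, against 3 and 3 in the NONO IP. It was 7.51-fold lower on the TMM scale (exact conditional 95% interval 3.07 to 22.1, counting error only). It did not pass the filter on low counts, and in the fit without it Nono changed by −2.64 (edgeR adjusted p = 0.000772). Mitochondrial genes took between 1.16% and 1.22% of input reads and between 0.0969% and 0.111% of NONO IP reads. Genes of rRNA took 42.3% and 41.1% of input reads and 31.9% and 32.2% of NONO IP reads. Of 10 fibroblast markers 9 were found, and Lum had no read. They summed to 76767 and 76817 CPM in the inputs and 72320 and 72427 CPM in the NONO IP. Nearly all of this was collagen: Col1a1, Col1a2 and Col3a1 held 10575, 5134 and 3318 of 19157 reads in Input replicate 1. The others were sparse and not uniform. Postn had 73 and 60 input reads against 11 and 11, Pdgfra 9 and 11 against 31 and 31, and Dcn 2 and 2 against 0 and 0. The myoblast markers Myod1, Myog, Myf5 and Pax7 had no read in any library, Des alone having 15 input and 6 NONO IP reads. Of 8 cardiomyocyte markers, 7 were found with 106 input and 156 NONO IP reads and Tnni3 had none. The 4 smooth muscle markers summed to 1050 and 709 reads, the macrophage and leukocyte markers to 28 and 4, with Ptprc at 0, and the endothelial ones to 1 and 1, with Pecam1, Cdh5 and Kdr at 0. The part of these differences in the results below was not tested. Precipitation, siRNA, the number of cells of a type and the RNA per cell cannot be told apart in these bulk RNA libraries.

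Which of these transcripts were higher or lower with NONO was asked with edgeR's quasi-likelihood test, fitted on the whole table with TMM scaling and a filter on low counts. The splicing genes did not move as one. Snrnp70, Luc7l2 and Tra2a were higher in the NONO IP, and Snrnp200, Prpf8, Prpf19, Sf3b1, Srsf2, Son, Srrm2 and Rsrp1 were lower. Only 18 of the 63 members passed the filter and were tested, of which 3 were higher, 8 lower and 7 did not pass an adjusted p of 0.05. Over all 2920 genes tested, 29.8% were higher and 26.9% lower, 871 and 786 genes. The median log2 fold change was −0.80 for the tested members and 0.02 for all tested genes.

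The filter asks for enough reads in one group, so a gene can pass through the group where it is high. The smallest total of any tested gene was 23 reads, and 7 of the 18 tested members fell short of that in the inputs alone. Of the called members Tra2a, with 8 input reads, was among these. In the NONO IP alone Snrnp200, Prpf19, Sf3b1 and Rsrp1, all called lower, fell short of 23 with 11, 15, 15 and 14 reads. So did Sf3b2, Prpf38b and Srrm1, which were not called. A fit over all 13731 listed genes without the filter also called 3 members higher and 8 lower, Sf3b3 in place of Rsrp1, where 8.59% and 4.73% of all genes were called. Its scale differed, with a median log2 fold change of all genes of 0.30 beside 0.02 with the filter. Among the 6401 listed genes with at least 10 reads over the 4 libraries, that fit called 17.7% higher and 9.65% lower; 44 members had as many reads, among them all 11 that it called.

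The balance of calls depended on the scale. With library totals in place of TMM, 5 members were higher and 7 lower, against 1193 (40.9%) and 466 (16%) of all tested genes, and the median of all genes moved to 0.45. On the deposited RPKM scale with a pseudocount of 1, where 53 members were tested, 2 were higher and 17 lower, against 393 (5.19%) and 1425 (18.8%) of all genes, with a median of all genes of −0.61. With a pseudocount of 0.1 they were 2 and 12, against 348 (4.59%) and 1143 (15.1%), with a median of −0.82. Fold changes that follow use TMM unless another scale is named.

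**Figure D1:**
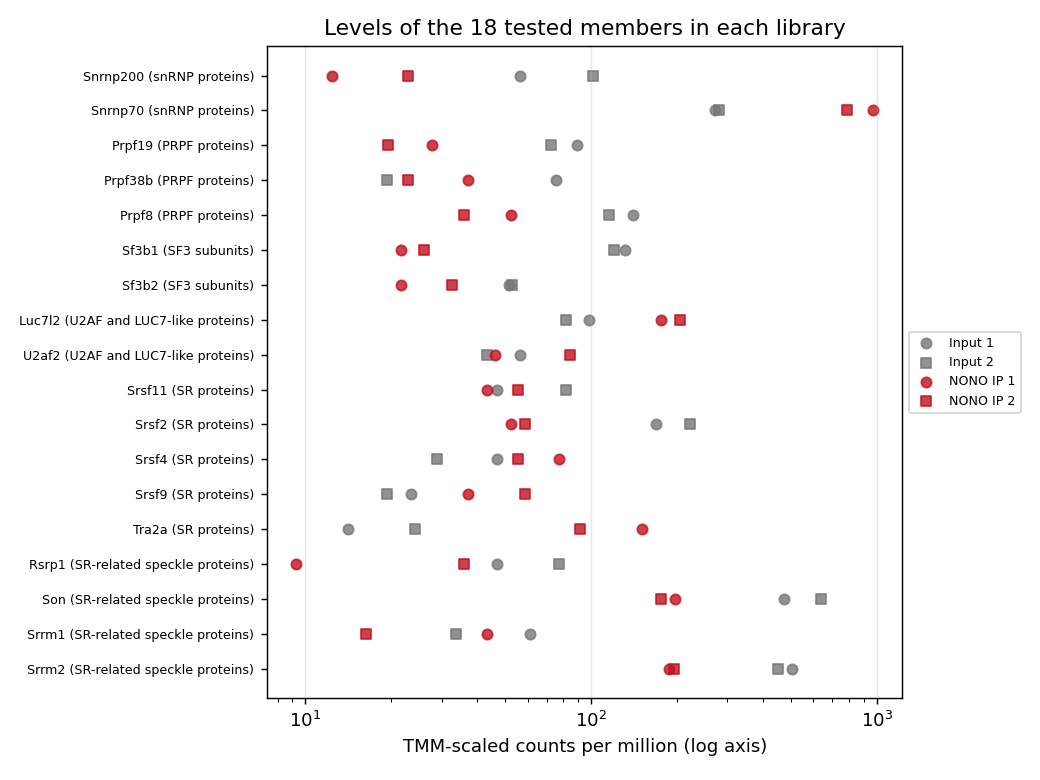
Level of each of the 18 tested members, in TMM-scaled CPM on a log axis, in the 2 input (grey) and 2 NONO IP (red) libraries, with replicate 1 as circles and replicate 2 as squares. For Snrnp70, Luc7l2, Srsf4, Srsf9 and Tra2a both red points lie to the right of both grey points, and for 9 genes both lie to the left.

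Of the 18 tested members, both NONO IP libraries exceeded both inputs in 5 and fell short of both in 9, where over all tested genes these shares were 40.6% and 37.3%.

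Snrnp70 had more NONO IP reads than any other member. It encodes the 70K protein of U1 snRNP, which binds the first stem-loop of U1 snRNA, and lies on chromosome 1. The inputs held 58 and 58 of its reads, the NONO IP 316 and 242. Both NONO IP libraries were far above both inputs, and the inputs were all but equal. On the TMM scale its level went from 276 ± 5.25 to 881 ± 132 CPM (SD, n = 2), a log2 fold change of 1.68 (SE 0.15, edgeR adjusted p = 5.95e-08). It ranked 428 of 2920 genes from the highest, and 325 of 2777 protein-coding ones, so its increase was not among the largest in the experiment. Snrnp70 made up 8.79% ± 0.0471 of all member reads in the inputs and 33.9% ± 4.01 in the NONO IP (SD, n = 2).

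The other U1-specific proteins did not share this pattern. Snrpa, the U1 A protein that binds the second stem-loop, had 3 and 4 input reads against 0 and 1, a ratio of NONO IP to input of 0.0951 (exact conditional 95% interval 0.00211 to 0.741, for counting error only). Snrpc, the U1 C protein that steadies pairing at the 5′ splice site, had 2 and 1 against 0 and 0. Both are too thinly covered for a call, and neither was tested with the filter.

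Snrnp200 encodes the helicase of U5 snRNP that unwinds U4 from U6, and lies on chromosome 3. It had 12 and 21 input reads against 4 and 7 in the NONO IP, so the groups did not overlap. Its level went from 78.8 ± 31.8 to 17.6 ± 7.39 CPM (SD, n = 2), a log2 fold change of −2.14 (SE 0.47, edgeR adjusted p = 0.000966). The call ended without Input replicate 2 (edgeR adjusted p = 0.102, at −1.73) and on log2(RPKM + 0.1) in limma (adjusted p = 0.0530, at −2.69).

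The remaining 16 snRNP protein genes held 50 input reads and 56 NONO IP reads together and were not tested. Those with at least 10 reads were Snrpb, a protein of the Sm ring that encircles the snRNAs, with 9 input and 10 NONO IP reads, Snrpa1 of U2 snRNP with 7 and 9, and Snrnp48 of the minor U11/U12 snRNP with 5 and 16. Without Snrnp70, the summed snRNP protein reads were 39 and 44 in the inputs against 33 and 34 in the NONO IP, whereas with it they were 97 and 102 against 349 and 276. The summed increase of the snRNP group was therefore that of 1 gene.

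Of the PRPF genes, Prpf8 and Prpf19 were lower and none was higher. Prpf8, the U5 protein that cradles the catalytic centre, had 30 and 24 input reads against 17 and 11. Its level fell from 128 ± 17.7 to 44.1 ± 11.8 CPM (SD, n = 2), a log2 fold change of −1.52 (SE 0.33, edgeR adjusted p = 0.000834). Prpf19, a ubiquitin ligase needed to activate the spliceosome, had 19 and 15 against 9 and 6 reads and changed by −1.75 (SE 0.41, edgeR adjusted p = 0.00167). For both genes the input and NONO IP libraries were separate. Prpf38b, with 16 and 4 input reads against 12 and 7, differed more between the inputs than between the groups (−0.65, SE 0.52, edgeR adjusted p = 0.297). It would have been called lower without Input replicate 2 (−1.37, edgeR adjusted p = 0.0267) and turned to 0.56 without Input replicate 1 (edgeR adjusted p = 0.705).

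Several untested PRPF genes held at least 10 reads. Prpf6, a scaffold of the tri-snRNP, had 5 and 10 input reads against 3 and 2, a ratio of 0.222 (exact conditional 95% interval 0.0631 to 0.643, counting error only). Prpf4b, a kinase that acts on spliceosomal proteins, had 7 and 5 against 3 and 0, a ratio of 0.166 (0.0301 to 0.617). These intervals lie below 1, but the fit without the filter gave both an edgeR adjusted p of 0.0552. Prpf18 had 14 input and 13 NONO IP reads, Prpf39 5 and 8 and Prpf40b 8 and 14, and the intervals of these 3 genes held 1.

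SF3 is the part of U2 snRNP that grips the branch point. Sf3b1, its largest subunit and the target of splicing inhibitor drugs and of mutations in blood cancers, lies on chromosome 9. It had 28 and 25 input reads against 7 and 8 in the NONO IP. Its level fell from 126 ± 7.70 to 23.8 ± 3.14 CPM (SD, n = 2), a log2 fold change of −2.38 (SE 0.37, edgeR adjusted p = 4.02e-05). That was the largest decrease among the 18 tested members, at rank 68 of 2920 from the lowest. With 15 NONO IP reads in all, Sf3b1 passed the filter through the inputs. The replicates of each group lay close together and the groups were far apart.

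Of the other SF3 genes 1 was tested. Sf3b2 had 11 and 11 against 7 and 10 reads (−0.95, SE 0.43, edgeR adjusted p = 0.0662), and was not called. Sf3b3, which forms a scaffold with SF3B1, had 7 and 9 against 3 and 2. It was not tested with the filter, and without it changed by −1.99 (edgeR adjusted p = 0.0350). Not every SF3 gene had fewer reads: Sf3a2 had 4 and 2 against 12 and 8, a ratio of 2.22 (exact conditional 95% interval 0.860 to 6.75, counting error only), and Sf3b4 had 4 and 2 against 2 and 10, where 1 library holds 10 of the 12 NONO IP reads. Sf3a1 had 11 and 13 reads in input and NONO IP, and Sf3b5 had 6 and 5.

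U2AF and the LUC7-like proteins act at the 2 ends of the intron. Luc7l2, a U1-associated protein that influences which 5′ splice sites are used, lies on chromosome 4 and had 21 and 17 input reads against 57 and 63. Both NONO IP libraries exceeded both inputs. Its level rose from 90.3 ± 11.7 to 190.5 ± 20.7 CPM (SD, n = 2), a log2 fold change of 1.07 (SE 0.26, edgeR adjusted p = 0.00232). The gene was no longer called in the DESeq2 test (adjusted p = 0.0522, at 1.07) and on the RPKM scales, where limma gave 0.38 (adjusted p = 0.284) and 0.41 (adjusted p = 0.261) beside medians of all genes of −0.61 and −0.82. Klrg2, which overlaps Luc7l2 in the RefSeq table of the GRCr8 assembly, had at most 2 reads in a library.

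The paralogs of Luc7l2 were sparse. Luc7l had 1 and 5 input reads against 5 and 7, and Luc7l3 had 7 and 1 against 6 and 6, both with intervals that held 1. U2af2, the large U2AF subunit that binds the polypyrimidine tract, had 12 and 9 against 15 and 26 reads. Its groups overlapped (0.38, SE 0.41, edgeR adjusted p = 0.451). On the RPKM scales it stood at −0.27 and −0.32, above the medians of all genes of −0.61 and −0.82. U2af1, the small subunit that reads the AG at the intron end, had 6 and 6 against 5 and 3.

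**Figure D2:**
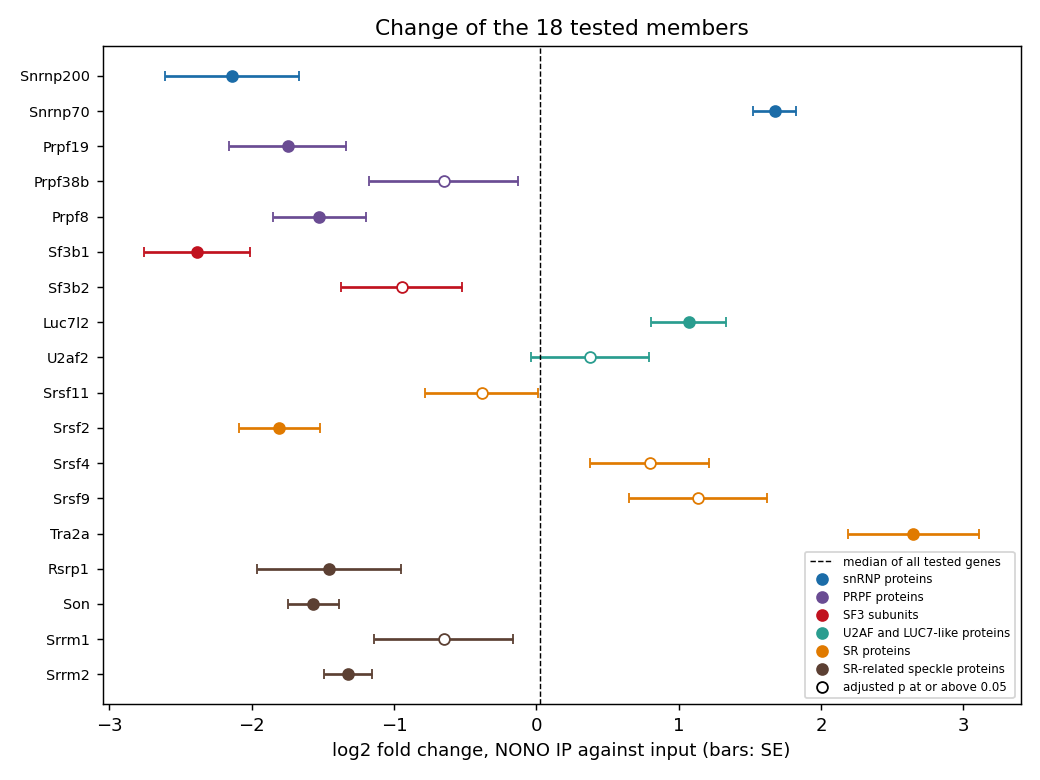
Log2 fold change of NONO IP against input with its SE for the 18 tested members, coloured by role, filled where the edgeR adjusted p was under 0.05 and open where it was not. The dashed line is the median of all tested genes at 0.02. Filled points run from Sf3b1 at −2.38 to Tra2a at 2.65.

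The SR protein genes were split in direction. Tra2a, a homologue of the fly sex determination factor transformer 2, lies on chromosome 4 and had 3 and 5 input reads against 49 and 28. Both NONO IP libraries were well above the inputs but differed from each other. Its level rose from 19.1 ± 7.09 to 121 ± 42.5 CPM (SD, n = 2), a log2 fold change of 2.65 (SE 0.46, edgeR adjusted p = 0.000110), the largest increase among the 18 tested members, at rank 198 of 2920 genes from the highest. With 8 input reads in all it passed the filter through the NONO IP. The call ended on the RPKM scales in limma, at 1.24 (adjusted p = 0.0717) and 1.88 (adjusted p = 0.0909).

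Srsf2, known as SC35, a founding SR protein and a marker of speckles, moved the other way. It lies on chromosome 10 and had 36 and 46 input reads against 17 and 18. Its level fell from 195 ± 37.4 to 55.5 ± 4.34 CPM (SD, n = 2), a log2 fold change of −1.81 (SE 0.28, edgeR adjusted p = 4.39e-05), and the groups did not overlap.

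The other 3 tested SR genes did not pass. Srsf9 had 5 and 4 input reads against 12 and 18 (1.13, SE 0.48, edgeR adjusted p = 0.0543), and Srsf4 had 10 and 6 against 25 and 17 (0.80, SE 0.42, edgeR adjusted p = 0.113). In both genes the precipitated libraries were above the inputs. Srsf9, whose gene is short at 0.388 of the median relative length, was called higher with an offset for gene length (edgeR adjusted p = 0.00184), and both were called with library totals (1.56, edgeR adjusted p = 0.00977, and 1.23, edgeR adjusted p = 0.0165). Srsf11 had 10 and 17 against 14 and 17 reads and overlapped between the groups (−0.38, SE 0.40, edgeR adjusted p = 0.423). With library totals it stood at 0.044, where the median of all genes was 0.45.

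All 7 untested SR genes held at least 10 reads. Srsf6 had 4 and 5 against 10 and 11, and Srsf10, which represses splicing when dephosphorylated, had 2 and 2 against 4 and 6. Srsf1, the SR protein also known as ASF/SF2, had 12 and 8 against 6 and 9, and Srsf5 had 6 and 14 against 10 and 7. Srsf3 had 12 reads in the inputs and 13 in the NONO IP, and Srsf7 had 7 and 3. Tra2b had 10 and 6 against 5 and 5, a ratio of 0.416 (exact conditional 95% interval 0.169 to 0.975, counting error only), and was not called without the filter (edgeR adjusted p = 0.325). On the TMM scale Srsf6, Srsf10, Srsf4, Srsf9 and Tra2a were those of the 12 SR genes whose libraries all stood higher with the antibody, and in Srsf1, Srsf2, Srsf7 and Tra2b both lay below. Over all listed genes, many with few reads, 22.5% lay above and 22.7% below in this way. Over the tested genes these shares were 40.6% and 37.3%.

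The scaffold genes of nuclear speckles had the most input reads of all members and were both lower in the NONO IP. Son, on chromosome 11, had 101 and 132 input reads against 64 and 54 in the NONO IP. Its level fell from 555 ± 115 to 187 ± 15.3 CPM (SD, n = 2), a log2 fold change of −1.57 (SE 0.18, edgeR adjusted p = 1.2e-06). Srrm2, on chromosome 10, had 108 and 94 against 61 and 60 reads. It fell from 480.2 ± 38.0 to 192 ± 5.03 CPM (SD, n = 2), a log2 fold change of −1.32 (SE 0.17, edgeR adjusted p = 3.81e-06). Together they made up 33.0% ± 1.65 of member reads in the inputs and 14.6% ± 0.0689 in the NONO IP (SD, n = 2). Gart and Donson, which overlap Son in the RefSeq table, had at most 4 reads in a library.

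Rsrp1, an arginine- and serine-rich protein gene, had 10 and 16 input reads against 3 and 11. The NONO IP libraries lay below the inputs only after scaling, since 11 exceeds 10. It was called lower (−1.46, SE 0.51, edgeR adjusted p = 0.0203), but the call ended under 9 of 14 alternatives, among them without Input replicate 2 (−1.12, edgeR adjusted p = 0.289), without NONO IP replicate 1 (−0.72, edgeR adjusted p = 0.300) and with the DESeq2 test (adjusted p = 0.172). Srrm1, which bridges SR proteins on exons, had 13 and 7 against 14 and 5 (−0.65, SE 0.49, edgeR adjusted p = 0.266), and its groups overlapped. Srrm3 had 1 read in each group. The SR kinases were not tested. Srpk1 had 7 and 4 against 5 and 12 reads, and Srpk2 had 5 and 4 against 5 and 13, so that in both the second NONO IP library alone stood above the rest.

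**Figure D3:**
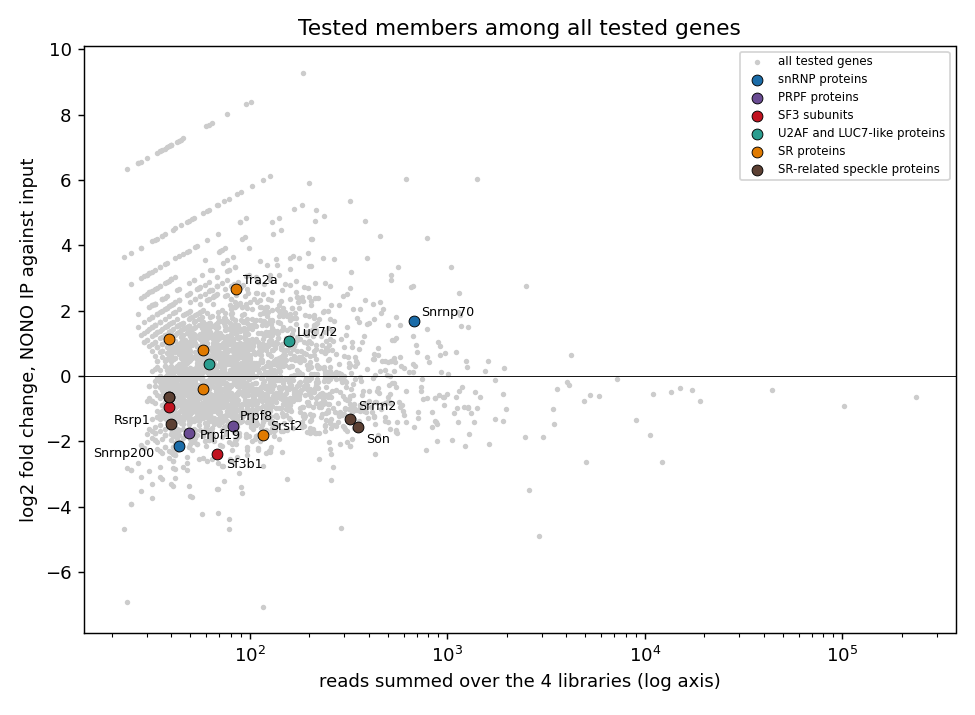
Log2 fold change of NONO IP against input (vertical) by reads summed over the 4 libraries (horizontal, log axis) for all 2920 tested genes (grey) and the 18 tested members (coloured by role), with called members named. Of the members only Snrnp70, Son, Srrm2, Luc7l2 and Srsf2 had at least 100 reads.

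Set by role, the tested members gave 1 higher and 1 lower of 2 snRNP genes, 2 lower of 3 PRPF genes, 1 lower of 2 SF3 genes, 1 higher of 2 U2AF and LUC7-like genes, 1 higher and 1 lower of 5 SR genes and 3 lower of 4 SR-related speckle genes. Over all 2920 genes tested, 29.8% were higher and 26.9% lower. Numbers this small allow no statement on a difference between the roles. Over the 44 members with at least 10 reads, 28 had a pooled ratio of NONO IP to input below 1 on the TMM scale and 16 above, a median log2 ratio of −0.45, where 55.8% of 6124 protein-coding genes with as many reads lay below 1, at a median of −0.14. By role the median was −0.22 for 5 snRNP genes, −0.69 for 9 PRPF genes, −0.85 for 7 SF3 genes, 0.38 for 5 U2AF and LUC7-like genes, −0.43 for 12 SR genes and −1.40 for 4 SR-related genes. Of all 63 members, 10 had both antibody libraries above both inputs and 23 had both below, where over all listed genes these shares were 22.5% and 22.7%.

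**Figure D4:**
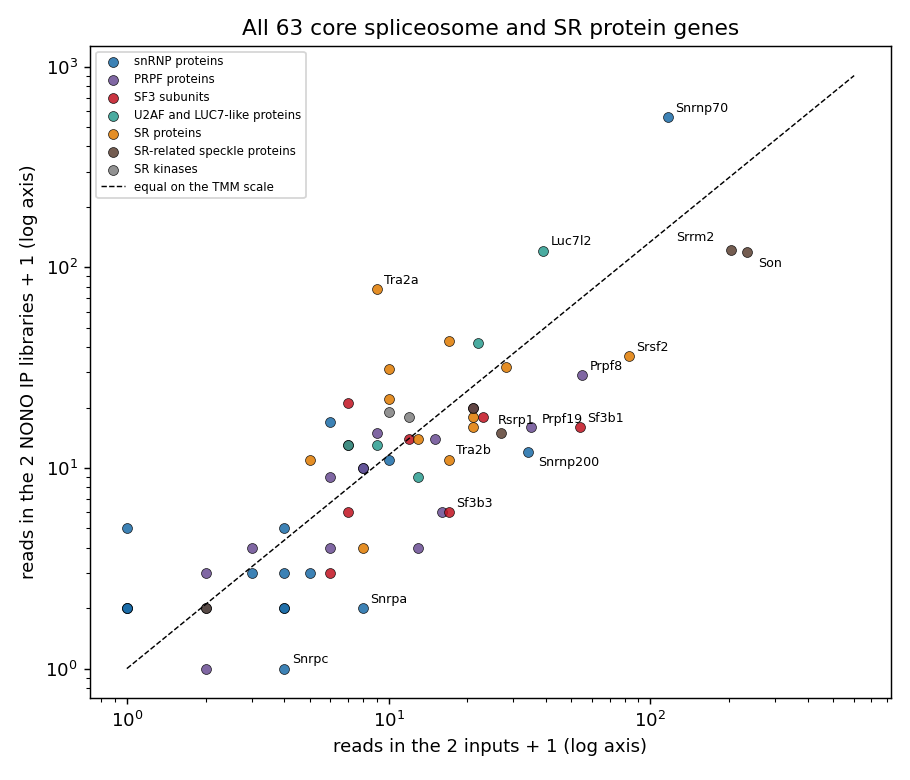
Reads in the 2 NONO IP libraries (vertical) by reads in the 2 inputs (horizontal), each plus 1 on a log axis, for all 63 members, coloured by role. The dashed line marks equal levels on the TMM scale. Snrnp70 at 116 and 558 reads, Luc7l2 at 38 and 120 and Tra2a at 8 and 77 lie well above it, and most snRNP genes sit in the lower left corner at a few reads.

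The members were also summed by the particle they belong to, an arrangement made after the values were seen. The 3 U1-specific genes summed to 63 and 63 input reads against 316 and 243, all but 11 of them on Snrnp70, while Snrpa and Snrpc had ratios below 1. The 4 U5 genes (Prpf8, Snrnp200, Snrnp40 and Prpf6) summed to 48 and 57 against 26 and 20. That was a ratio of 0.292 (exact conditional 95% interval 0.202 to 0.416, counting error only), and all 4 had a ratio below 1. Most of the 105 input and 46 NONO IP reads were on 2 genes already called lower, Prpf8 with 54 and 28 and Snrnp200 with 33 and 11. The 9 genes of U2 snRNP and SF3 summed to 72 and 60 against 45 and 53, a ratio of 0.494 (0.377 to 0.647), with 7 below 1. Sf3b1 held 53 of their 132 input reads and 15 of their 98 NONO IP reads. The 6 genes of U1-associated factors summed to 39 and 33 against 86 and 89, a ratio of 1.62 (1.22 to 2.16), with 2 below 1. Of their 175 NONO IP reads 120 were on Luc7l2. Among the 6124 protein-coding genes with at least 10 reads, 55.8% lay below 1. Snrpa, Snrpc, Snrnp40 and Sf3a3, counted in the particles above, had fewer reads than that. The 8 Sm ring genes held 19 input and 25 NONO IP reads in all, and the 6 genes of U4/U6 and the tri-snRNP 32 and 28.

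Ratios between members within a library do not depend on any scaling. Snrnp70 had 1.93 and 2.42 reads for each read of Prpf8 in the inputs against 18.6 and 22.0 in the NONO IP, a 9.33-fold higher mean. Luc7l2 had 0.750 and 0.680 reads for each read of Sf3b1 in the inputs against 8.14 and 7.88 in the NONO IP. The paralogs Tra2a and Tra2b stood at 0.300 and 0.833 in the inputs against 9.80 and 5.60 in the NONO IP, and Srsf4 to Srsf2 at 0.278 and 0.130 against 1.47 and 0.944. In each of these pairs, picked after their values were seen, the groups were separate. An exact permutation test of 2 against 2 libraries cannot go below p = 0.333 (two-sided, n = 2 per group).

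Between whole roles the contrasts were smaller. SR protein reads stood at 0.448 and 0.504 of SR-related speckle reads in the inputs and at 1.13 and 1.10 in the NONO IP, and at 1.55 and 2.17 of SF3 reads against 3.90 and 3. The snRNP to SF3 ratio was 1.45 and 1.76 in the inputs against 8.51 and 5.75 in the NONO IP, but 0.582 and 0.759 against 0.805 and 0.708 with Snrnp70 left out, where the groups overlapped. Within the SR proteins, Tra2a made up 3.43% ± 0.766 of reads in the inputs and 25.0% ± 7.91 in the NONO IP, and Srsf2 35.6% ± 1.34 and 11.6% ± 1.33 (SD, n = 2). The summed SR reads were 104 and 126 against 160 and 144, a ratio of 0.880 on the TMM scale, while the raw sums were higher in the NONO IP.

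**Figure D5:**
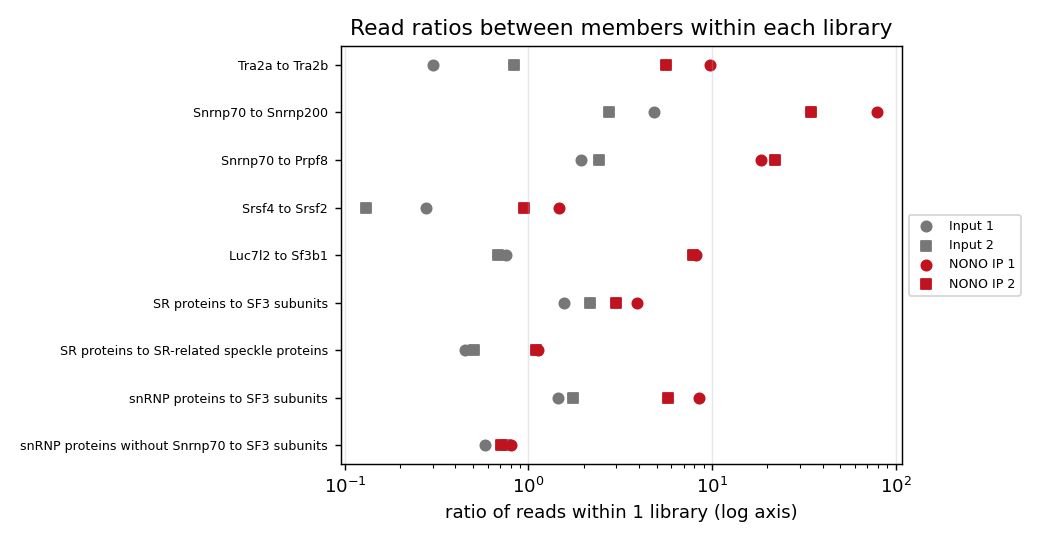
Ratio of reads between members or roles within each library, on a log axis, in the inputs (grey) and the NONO IP (red), with replicate 1 as circles and replicate 2 as squares. The red points lie to the right of the grey ones in every row but the last, where the snRNP genes without Snrnp70 stand between 0.582 and 0.805 of the SF3 reads in all 4 libraries.

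Levels of different genes were compared per length, on the deposited RPKM scale and within the inputs. Srsf2 (36.8 ± 7.27 RPKM) and Snrnp70 (36.4 ± 0.926) were the highest of the tested members and did not differ beyond their spread. Son (25.2 ± 5.38) and Srrm2 (23.1 ± 1.68) followed, likewise within their spread, and then Prpf19 (20.4 ± 2.88). Tra2a was the lowest at 0.860 ± 0.325 (SD, n = 2 for each). In the NONO IP, where the total behind the RPKM was 2.45 and 2.22 times that of Input replicate 1, Snrnp70 stood first at 73.3 ± 8.75 and Srsf9 next at 12.7 ± 4.41. Across the 18 tested members the log2 fold change had a Spearman correlation of −0.46 with log2(input RPKM + 0.1) and −0.03 with relative gene length. Over all 2920 tested genes these were −0.63 and 0.26. The values share libraries and the first pair shares the input reads, so they are descriptions only.

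Other genes of splicing outside the name rule, 116 of a fixed list of 125, gave 27 tested genes, of which 3 were higher, 4 lower and 20 did not pass, at a median of −0.17, where 29.8% of all tested genes were higher and 26.9% lower. The higher ones were Hnrnpf, Rbfox2 and Qk. Hnrnpf, which binds G-runs, had 14 and 16 against 161 and 131 reads (2.69, SE 0.22, edgeR adjusted p = 1.92e-08). Rbfox2, which binds UGCAUG, had 26 and 24 against 160 and 150 (2.04, SE 0.19, edgeR adjusted p = 6.86e-08), and Qk, the quaking gene, had 13 and 16 against 92 and 69 (1.88, SE 0.27, edgeR adjusted p = 1.55e-05). For all 3 the NONO IP libraries were several times above the inputs.

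The lower ones were Rbm39, a U2AF-like factor, with 13 and 22 against 2 and 5 reads (−2.86, SE 0.51, edgeR adjusted p = 0.000154), Ptbp1, the polypyrimidine tract binding repressor, with 30 and 26 against 15 and 17 (−1.39, SE 0.31, edgeR adjusted p = 0.00101), Rbm42 with 10 and 12 against 5 and 6 (−1.56, SE 0.46, edgeR adjusted p = 0.00763) and Scaf1 with 43 and 45 against 45 and 42 (−0.60, SE 0.22, edgeR adjusted p = 0.0285). In Scaf1 the raw reads overlapped, and it was lower only after scaling. In the fit without the filter, where the median of all genes was 0.30, Rbm42 (edgeR adjusted p = 0.0902) and Scaf1 (−0.38, edgeR adjusted p = 0.394) were not called. That fit called lower instead Eif4a3, a helicase of the exon junction complex, with 8 and 7 against 0 and 0 reads (edgeR adjusted p = 0.000186), and Aqr, with 3 and 7 against 0 and 1 (edgeR adjusted p = 0.0191). Hnrnpu, with 78 and 78 against 113 and 96 reads, did not pass.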

How the data were processed

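Whole-number counts per gene, deposited by the authors without normalisation, and deposited RPKM values (reads per kilobase scaled to a library total by the authors) were used for 2 input and 2 NONO IP libraries, matched by title. The build mRatBN7.2 and the tools HISAT2 and HOMER are named, without roles, per the submitters' processing notes. Per the labels' protocols, poly(A) RNA was captured and a stranded kit used. Not given in the sources used here are the counting program, its strand setting and its handling of reads with several positions, so reads shared with overlapping or near-identical genes are uncertain. All 63 symbols matched the RefSeq table of GRCr8, in which 25 overlapped another gene.

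The test was edgeR 4.0.16 (R 4.3.3), quasi-likelihood, TMM scaling after filterByExpr, with Benjamini-Hochberg adjustment over 2920 genes at 0.05 and a common dispersion of 0.00458. SE is the log2 fold change over the root of the F statistic. CPM beside a fold change is TMM-scaled. Exact conditional intervals of reads pooled over the libraries of a group cover counting error only and leave out the spread between replicates. Reads carry no molecular identifiers, so duplicates cannot be told from separate molecules. Relative gene length is counts over RPKM, set to the median listed gene. On simulated counts with 2822 genes tested, 33.8% of 77 genes changed 2-fold and 84.0% of 94 changed 4-fold were called in the right direction. In the data far more genes were called, 1657 of 2920, so these rates need not hold for it. Members, roles and lists were chosen with earlier results of these data known. Members that passed the filter were named with values by role, with full statistics for at most 2 per role and direction by adjusted p and for those going against their role (tested but uncalled genes are also given with SE and p). Untested members were named at 10 reads or more (1 is not reported here), and others (Snrpa, Snrpc, Srrm3 and those in the particle lists) after their values were seen. Of other splicing genes up to 4 per direction by adjusted p were named; Hnrnpu, Eif4a3 and Aqr were added after their values were seen. Alternatives were DESeq2 1.42.0 size factors and Wald test, library totals, limma-voom (limma 3.58.1), no filter, a minimum of 50 counts in 2 libraries, log2(RPKM + 1) or log2(RPKM + 0.1) in limma with RPKM of at least 1 in 2 libraries, a replicate block, a loess length offset (span 0.5) without and with that block, and each library left out.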

Additional observations from a re-analysis of the deposited data

How the results depend on the processing

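Of the 11 called members, 7 (Snrnp70, Prpf8, Prpf19, Sf3b1, Srsf2, Son and Srrm2) held call and direction in every alternative that tested them, between 14 and 15 each; Snrnp200, Luc7l2, Tra2a and Rsrp1 lost it in at least 1, with no direction turned. Members higher numbered 5 of 18 tested with library totals, where 1193 of all 2920 genes tested were higher. Members lower numbered 17 of 53 on log2(RPKM + 1), where 1425 of all 7576 genes tested were lower. With at least 50 counts in 2 libraries they numbered 2 of 4, where 247 of all 600 genes tested were lower. All genes called numbered 876 of 2920 with the DESeq2 Wald test and 501 of 600 with at least 50 counts. Other splicing genes called numbered 3 of 4 tested with at least 50 counts, against 7 of 27 above. On log2(RPKM + 1) and log2(RPKM + 0.1) they numbered 17 and 14 of 94, where 1818 and 1491 of all 7576 genes were called. Members higher were 3 without each library in turn, and members lower 7 to 8. Some uncalled genes changed sign. U2af2 went to −0.27 and −0.32 on the RPKM scales, where the medians of all genes were lower, at −0.61 and −0.82. Srsf11 went to 0.044 with library totals, where that median was 0.45. Without single libraries U2af2 ran from −0.053 to 0.82, Srsf11 from −0.80 to 0.0049 and Prpf38b from −1.37 to 0.56. The cause was not tested. The replicate block left 3 members higher and 8 lower of 18 tested, where 870 and 806 of all 2920 genes were higher and lower. It left 8 of 27 other splicing genes called. Deviations of same-numbered libraries correlated at 0.0423 over 2920 genes, and the labels do not pair them. Depth limits most members: 45 of 63 were not tested, and 19 had fewer than 10 reads.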

Other observations

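The spliceosomal snRNAs themselves, summed over their listed gene copies, differed between particles. U1 snRNA, over 37 listed copies, had 325 and 297 input reads against 961 and 821 with the antibody. The sequences of the copies were not compared, and the assignment of reads between them is uncertain. U2 snRNA, over 14 copies, had 25 and 19 against 7 and 6, and U5 snRNA, over 5 copies, had 13 and 14 against 1 and 0. The U6atac snRNA of the minor spliceosome had 1 and 0 against 9 and 13, and U4atac 3 and 8 against 4 and 5. The 3 protein genes of the minor U11/U12 snRNP, Snrnp25, Snrnp35 and Snrnp48, had 8 input and 18 NONO IP reads, 16 of the latter on Snrnp48. The protocols name capture of poly(A) RNA, and its part in the snRNA reads was not tested. No relation between the snRNAs and the mRNAs of their proteins was tested.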
